A study of Rattus norvegicus with 138 samples.

Results

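Transcripts of voltage-gated sodium channel subunits were measured by RNA sequencing in 3 autonomic nuclei of the rat brainstem, the nucleus of the solitary tract (NTS), the caudal ventrolateral medulla (CVLM) and the rostral ventrolateral medulla (RVLM). The 8 genes described here were taken by their symbols from the 32883 genes of the count tables. They comprise 5 α subunits, Scn1a, Scn2a, Scn3a, Scn8a and Scn9a, and 3 β subunits, Scn2b, Scn3b and Scn4b. All 8 passed the filter on low counts in each of the 3 regions.

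The α subunit is a large membrane protein that forms the pore of the channel, opens when the membrane depolarizes and carries the inward current of the action potential. The β subunits are small membrane proteins with an immunoglobulin-like domain that alter the gating of the pore and its placement in the membrane. In the medulla these channels fire the neurons of the baroreflex, from the NTS, which receives the afferents of the baroreceptors, through the inhibitory neurons of the CVLM to the presympathetic neurons of the RVLM.

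Untreated female rats of the hypertensive strain SHR/NHsd (SHR) and of its normotensive control strain WKY/NHsd (WKY) were taken at 5 ages, namely 8 wk (5 WKY rats and 5 SHRs), 10 wk (4 and 5), 12 wk (3 and 6), 16 wk (3 and 6) and 24 wk (3 and 6). Each of the 46 rats gave 1 library per region. By the study's staging, SHRs of 8 wk are prehypertensive, those of 10 and 12 wk are at onset, those of 16 wk are hypertensive and those of 24 wk have chronic hypertension. Different rats were taken at each age, and the punches from both sides of a nucleus were pooled. A punch mixes neurons, glia and vessels, so that fewer cells of a type and less RNA per cell cannot be told apart. SHRs differ from WKY rats in genotype as well as in blood pressure, and these cannot be told apart either.

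The 3 libraries of each of the 46 rats held from 5904570 to 17889406 counts per library, with medians of 9970376 (NTS), 10009206 (CVLM) and 10335110 (RVLM). The number that ends a library's name is 2 in 42 libraries of 14 rats, which are all rats of 10 wk, 3 of the 5 WKY rats of 8 wk, and 1 SHR each of 12 and 24 wk. What this number marks is not given in the sources used here, and it is unevenly spread over the strains at 8 wk and over the ages. In 2 CVLM libraries, 1 of each strain at 8 wk, the age label conflicts with the title, and they were placed by title. Counts of Scn1a, Scn2a, Scn3a and Scn9a were not whole numbers in 96.4% to 99.3% of libraries, as happens in expected counts where a read is shared between more than 1 place. Their values are uncertain where reads were shared. The share of libraries does not give the number of such reads, and which genes shared them was not tested. Counts of Scn8a and of the 3 β genes were whole in every library. Of 10 neuron markers, 0 passed the test between strains over the ages in edgeR in any region, with 1 (NTS), 2 (CVLM) and 3 (RVLM) at an unadjusted p under 0.05. At a single age, Stmn2 of this list was lower in the CVLM of SHRs of 24 wk (-0.33, edgeR adjusted p = 0.0283). Levels are given in CPM, counts per 1000000 counts of a library, on library sizes scaled by the TMM method over all libraries. Summed noradrenergic and adrenergic markers, which define cell groups of all 3 nuclei, ranged over the SHRs from 117 to 289 CPM (NTS), 167 to 374 (CVLM) and 40.9 to 279.7 (RVLM).

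In the rat genome the genes lie in groups. Neighbours in the RefSeq annotation of GRCr8 with 0 protein-coding genes between them were Scn3a and Scn2a, Scn1a and Scn9a, and Scn9a and Scn7a on chromosome 3, and Scn2b and Scn4b on chromosome 8. Scn8a lies alone on chromosome 7. The 250 bases before the annotated start were held by the RefSeq table for 6 of the 8 genes, and 5 are printed here, 5′ to 3′ on the strand of the gene, with CG dinucleotides in capitals. Scn9a, Scn3a and Scn2a are shown because their transcripts were higher in the RVLM of SHRs over the ages, and Scn8a and Scn4b because theirs were higher in the NTS of SHRs.
Scn9a promoter, chr3:71701378-71701627, strand minus: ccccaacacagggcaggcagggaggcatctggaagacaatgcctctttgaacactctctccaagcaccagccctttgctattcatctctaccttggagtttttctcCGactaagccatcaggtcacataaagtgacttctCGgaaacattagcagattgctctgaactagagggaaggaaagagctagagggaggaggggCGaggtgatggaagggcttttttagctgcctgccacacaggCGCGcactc
Scn3a promoter, chr3:70666199-70666448, strand minus: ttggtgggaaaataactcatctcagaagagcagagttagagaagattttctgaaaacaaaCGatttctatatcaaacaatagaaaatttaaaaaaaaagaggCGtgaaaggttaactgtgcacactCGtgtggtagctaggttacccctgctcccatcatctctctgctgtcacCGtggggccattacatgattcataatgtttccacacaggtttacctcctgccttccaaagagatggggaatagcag
Scn2a promoter, chr3:70710706-70710955, strand plus: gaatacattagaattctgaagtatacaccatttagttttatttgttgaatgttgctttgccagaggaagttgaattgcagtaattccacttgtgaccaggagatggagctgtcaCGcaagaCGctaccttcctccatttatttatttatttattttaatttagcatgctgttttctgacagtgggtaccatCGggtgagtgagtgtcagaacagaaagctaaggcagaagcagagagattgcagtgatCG
Scn8a promoter, chr7:133860977-133861226, strand plus: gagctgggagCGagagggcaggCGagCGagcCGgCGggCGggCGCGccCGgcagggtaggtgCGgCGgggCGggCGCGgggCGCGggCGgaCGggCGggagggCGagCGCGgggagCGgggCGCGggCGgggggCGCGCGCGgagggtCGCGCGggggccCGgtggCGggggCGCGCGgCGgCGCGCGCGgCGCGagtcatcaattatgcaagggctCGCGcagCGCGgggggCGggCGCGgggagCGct
Scn4b promoter, chr8:54343623-54343872, strand plus: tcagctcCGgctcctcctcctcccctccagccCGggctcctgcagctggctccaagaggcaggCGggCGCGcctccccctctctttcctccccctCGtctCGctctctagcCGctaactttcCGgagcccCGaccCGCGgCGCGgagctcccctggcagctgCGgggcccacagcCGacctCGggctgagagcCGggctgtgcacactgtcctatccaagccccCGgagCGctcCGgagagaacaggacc

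The promoter of Scn8a had 86.0% GC and 53 CG dinucleotides, a number reached by 8 of the 33469 promoters in the table. The promoter of Scn4b had 71.6% GC and 21 CG, and 84.9% of promoters had fewer. Those of Scn9a, Scn3a and Scn2a had 52.4%, 41.6% and 39.6% GC with 5, 4 and 4 CG, near the median of all promoters of 5 CG and 51.2% GC. The sixth, Scn2b, had 38.8% GC and 1 CG. Searched on both strands without mismatch, the GC box GGGCGG occurred 6 times in the Scn8a promoter and in no other of the 6, against 30.5% of all promoters. TATAAA (12.9% of all promoters), the E-box CACGTG (5.6%) and the cAMP response element TGACGTCA (1.6%) were not in any of these windows. Letters matched in this way are a description of the sequence and not sites of binding.

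Levels in CPM follow gene length as well as abundance, so that they are compared between regions and strains and not between genes. In both strains the genes fell into 2 groups across the nuclei. Scn2a, Scn3a, Scn9a, Scn2b and Scn3b were highest in the NTS, and Scn1a, Scn8a and Scn4b were lowest there. The punches differed in cell markers as well. In WKY rats summed neuron markers had medians of 9053 CPM (NTS), 13163 (CVLM) and 27819 (RVLM). Oligodendrocyte markers had 25893, 55201 and 46349, and motor and cholinergic markers 455, 137 and 1848. Inhibitory neuron markers (664, 586 and 261) and astrocyte markers (2271, 1578 and 1577) were highest in the NTS. Their part in these differences was not tested.

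**Figure D1:**
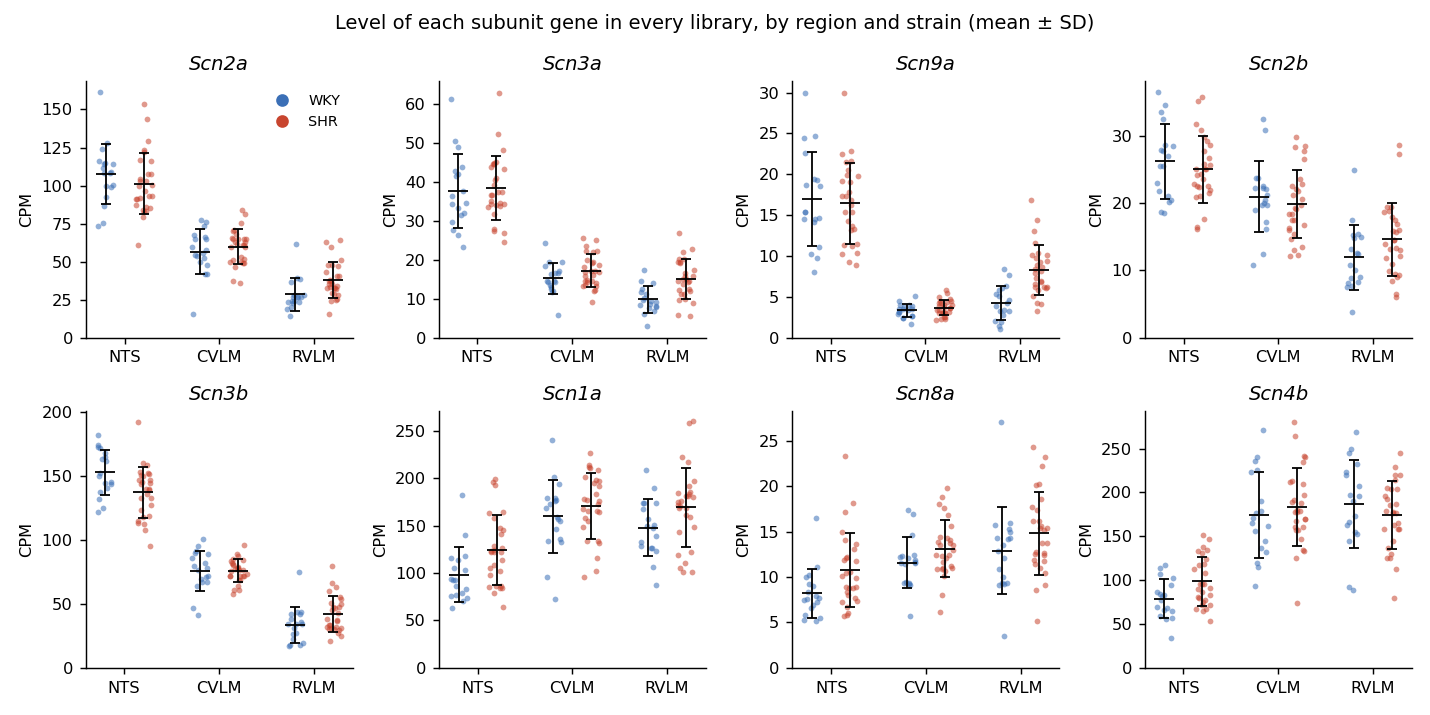
CPM (linear axis from 0) of each of the 8 genes by region, with 1 point per library and bars at the mean ± SD, for 18 WKY rats (blue) and 28 SHRs (red). Scn2a, Scn3a, Scn9a, Scn2b and Scn3b sit highest in the NTS, and Scn1a, Scn8a and Scn4b lowest there.

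Among the α subunits, Scn2a encodes Nav1.2, a channel of axons and axon initial segments of many central neurons. Its level over all 46 rats was 104 ± 20.1 CPM (NTS, SD), 58.6 ± 12.8 (CVLM) and 34.2 ± 12.1 (RVLM). In WKY rats the lowest, median and highest values were 73.7, 109 and 161 in the NTS and 14.5, 26.6 and 61.9 in the RVLM. Scn3a, which encodes Nav1.3, a channel more abundant in the developing brain, had 38.1 ± 8.71 CPM (NTS), 16.4 ± 4.16 (CVLM) and 13.01 ± 5.13 (RVLM). The last 2 levels differed by less than their SDs.

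Scn9a encodes Nav1.7, best known from sensory and sympathetic neurons. Over the 46 rats it had 16.6 ± 5.25 CPM (NTS), 3.55 ± 0.907 (CVLM) and 6.71 ± 3.37 (RVLM). Of the 30 groups of region, strain and age, its mean was lowest in the CVLM of WKY rats at 16 wk (2.64 ± 0.901, n = 3) and highest in the NTS of WKY rats at 16 wk (19.2 ± 5.11, n = 3), a ratio of 7.30. This was the widest span of the 8 genes, which for the others ran from 2.54 for Scn8a to 6.76 for Scn3b.

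Scn1a encodes Nav1.1, a channel that sustains fast firing, above all in inhibitory neurons. It had 114 ± 35.9 CPM (NTS), 166 ± 35.9 (CVLM) and 161 ± 38.6 (RVLM). Scn8a, which encodes Nav1.6, the main channel of mature axon initial segments and nodes of Ranvier, had 9.76 ± 3.79, 12.5 ± 3.07 and 14.0 ± 4.68 CPM in the same order. For both genes, neighbouring regions in the order of levels overlapped within their SDs.

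Among the β subunits, Scn3b (a noncovalently bound β subunit) had 144 ± 20.4 CPM (NTS), 76.0 ± 11.9 (CVLM) and 38.8 ± 14.5 (RVLM). Scn2b, whose product is linked to the pore by a disulfide bond, had 25.4 ± 5.15, 20.2 ± 5.13 and 13.6 ± 5.28 CPM. Scn4b, whose product promotes the resurgent current of fast-firing neurons, ran the other way with 91.0 ± 27.2, 180 ± 45.7 and 179 ± 43.5 CPM. The order of levels was therefore NTS, CVLM, RVLM for Scn2b and Scn3b, while the CVLM and the RVLM did not differ beyond their SDs for Scn4b.

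These differences were tested in 1 edgeR quasi-likelihood fit over all libraries with the rat as a block, and each is a log2 difference averaged over the 5 ages, with its SE and an adjusted p over 14043 genes. Between NTS and RVLM, 8 of 8 genes passed in each strain, 5 higher and 3 lower in the NTS. Of all genes 62.2% passed in WKY rats (30% higher and 32.2% lower) and 64.4% in SHRs (32.1% and 32.3%). In WKY rats the differences of the higher genes were 2.20 ± 0.11 for Scn3b, 1.99 ± 0.17 for Scn9a, 1.92 ± 0.11 for Scn2a, 1.90 ± 0.13 for Scn3a and 1.13 ± 0.11 for Scn2b. Those of the lower genes were -1.29 ± 0.12 for Scn4b, -0.69 ± 0.13 for Scn8a and -0.64 ± 0.09 for Scn1a (edgeR, highest adjusted p of the 8 = 2.16e-06, for Scn8a).

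Within single rats, Scn2a, Scn3a and Scn3b were higher in the NTS than the RVLM of 18 of 18 WKY rats and 28 of 28 SHRs. Scn9a was higher in 18 of 18 and 27 of 28. Scn4b was lower in the NTS in 17 of 18 WKY rats and 27 of 28 SHRs. Over all genes tested the median difference was -0.02 in WKY rats, against 1.52 over these 8.

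Between NTS and CVLM, 8 of 8 genes passed again in each strain, with the same split of 5 higher and 3 lower, where 52.5% of all genes passed in WKY rats (26.5% higher and 26% lower) and 55.7% in SHRs (28.9% and 26.8%). The widest difference was that of Scn9a, 2.37 ± 0.18 in WKY rats (edgeR, adjusted p = 7.24e-20) and 2.13 ± 0.14 in SHRs (adjusted p = 1.94e-23). Scn2b had the smallest of the higher genes, 0.38 ± 0.10 and 0.34 ± 0.08. In each of the 46 rats Scn9a had a higher level in the NTS than the CVLM.

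Between CVLM and RVLM, 4 of 8 genes passed in each strain, where 39% of all genes passed in WKY rats (19% higher and 20% lower) and 44.8% in SHRs (21.3% and 23.5%). Scn3b, Scn2a and Scn2b were higher in the CVLM of both strains, with differences of 1.13 ± 0.11, 0.92 ± 0.11 and 0.76 ± 0.11 in WKY rats. Scn3a passed in WKY rats (0.53 ± 0.13, edgeR adjusted p = 6.64e-04) and had 0.23 ± 0.10 in SHRs (adjusted p = 0.064). Scn9a had -0.38 ± 0.19 in WKY rats (adjusted p = 0.0982) and was lower in the CVLM of SHRs (-1.12 ± 0.14, adjusted p = 1.07e-10). It was lower in the CVLM than in the RVLM of 11 of 18 WKY rats and 26 of 28 SHRs.

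**Figure D2:**
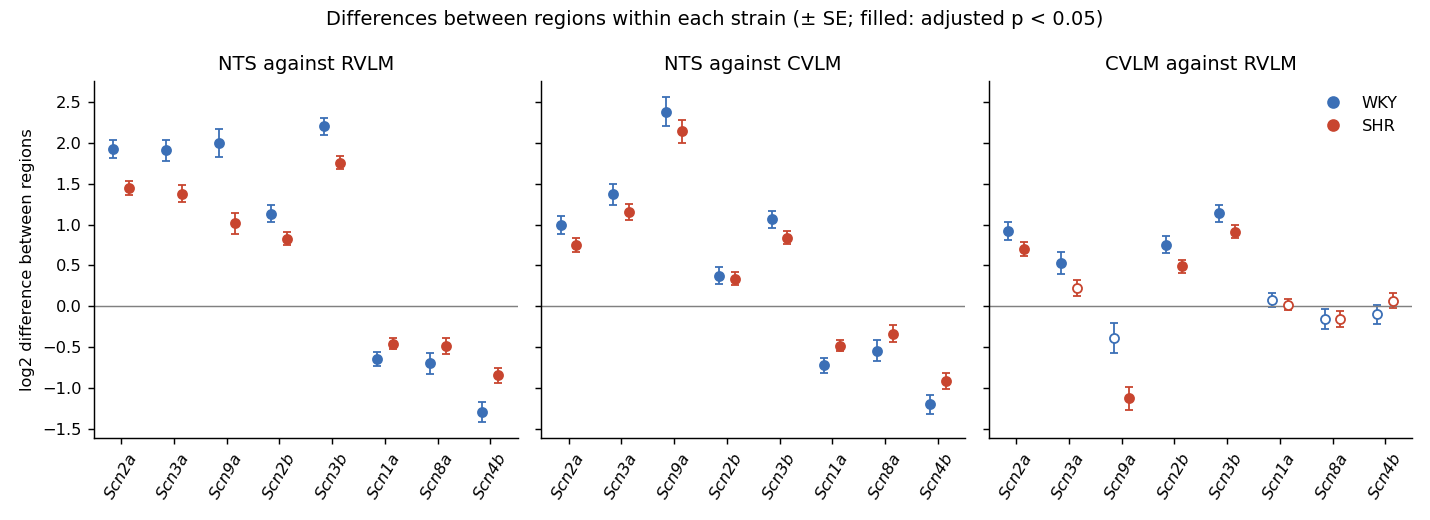
Log2 differences between regions, averaged over the 5 ages, for the 8 genes in WKY rats (blue) and SHRs (red), with bars of 1 SE and filled points for an adjusted p under 0.05 (edgeR). The NTS against RVLM difference of Scn9a is 1.99 in WKY rats and 1.01 in SHRs.

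Differences between the nuclei were mostly smaller in SHRs, and for Scn9a this passed a test. The NTS against RVLM difference was smaller in size in SHRs than in WKY rats for 8 of 8 genes, the NTS against CVLM difference for 8 of 8 and the CVLM against RVLM difference for 6 of 8. The same was true of 75.4%, 72.7% and 69.7% of all genes whose mean difference was over 0.5 in size with 1 sign in both strains. The counts of the 8 genes carry no such limit on size or sign, so that counts and shares are over unlike sets. The NTS against RVLM difference of Scn9a was 1.99 ± 0.17 in WKY rats and 1.01 ± 0.13 in SHRs. The strain difference of this gap, -0.98 ± 0.22, passed the test (edgeR, adjusted p = 0.00308), as did that of 1.82% of genes, and it stood in 1 of the 8 genes. The nearest of the others were Scn2a (-0.47 ± 0.14, adjusted p = 0.0533), Scn3b (-0.44 ± 0.13, 0.065) and Scn3a (-0.53 ± 0.16, 0.0784), and 6 of 8 had an unadjusted p under 0.05. On the differences within each rat, tested with limma, Scn9a kept an adjusted p of 0.0325, and it passed in 21 of the 28 such tests that each left out 1 WKY rat or 1 SHR of 8 or 10 wk, with 0.0984 without WKY replicate 2 of 16 wk. For the other pairs of regions 0 of 8 strain differences passed in edgeR, where 0.449% (NTS and CVLM) and 0.32% (CVLM and RVLM) of genes did, with 1 of 8 at an unadjusted p under 0.05 in each. In limma voom, also 0 of 8 passed for these pairs.

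In the RVLM, 3 of the 8 genes were higher in SHRs than in WKY rats over the 5 ages, Scn9a, Scn3a and Scn2a, and 0 were lower, where 10.8% of all genes passed in either direction and 5.84% were higher. From these same samples the study named Scn9a in the RVLM, and Scn8a and Scn1a in the NTS around onset. The calls of these genes in the RVLM and the NTS are therefore not independent evidence. None of the 8 met, over the ages, the stricter call of an adjusted p of at most 0.01 with a fold of at least 2, which 1.56% of genes met. The study made such a call at single ages, with DESeq2 and q values, and showed Scn9a among its RVLM genes of 8 wk. In edgeR Scn9a did not meet it at that age. At the single ages 2 of 40 values passed, where 9.78%, 2.3%, 1.7%, 1.65% and 2.24% of genes did, in order of age. The median log2 fold change of the 8 was 0.26, against 0.01 over all genes tested.

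**Figure D3:**
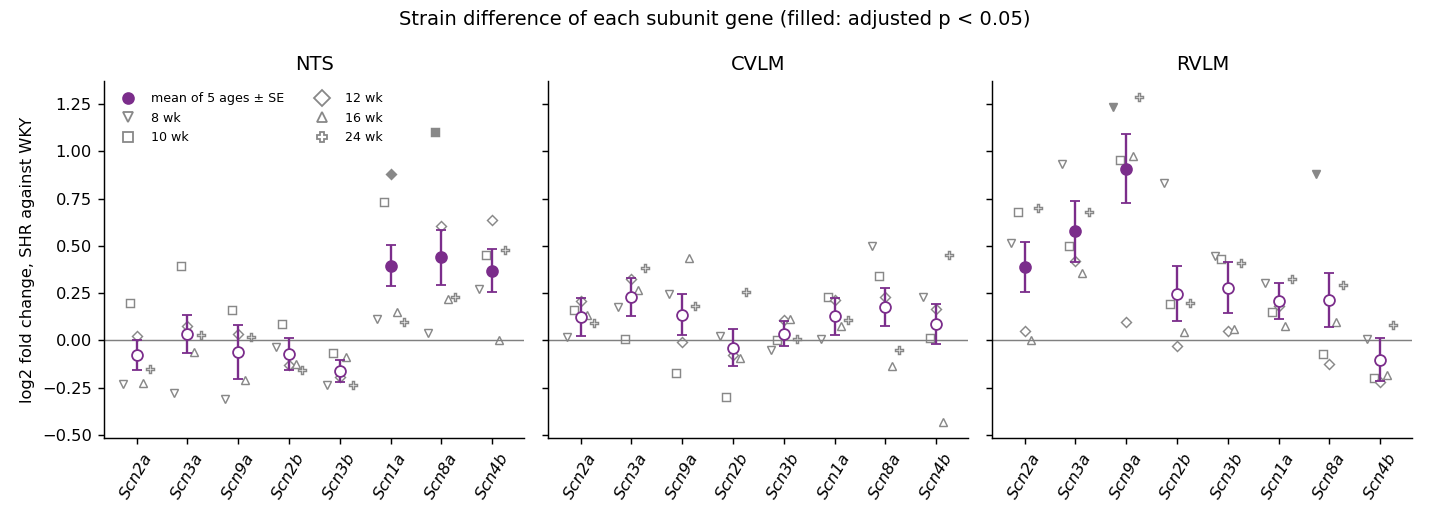
Log2 fold changes of SHRs against WKY rats for the 8 genes in each region, at each of the 5 ages and over them; filled points passed the test (edgeR, adjusted p under 0.05) and bars are 1 SE. Over the ages the filled points are Scn1a, Scn8a and Scn4b in the NTS and Scn9a, Scn3a and Scn2a in the RVLM.

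Scn9a had 4.26 ± 2.09 CPM in the RVLM of 18 WKY rats, with a lowest, median and highest value of 1.09, 4.04 and 8.35. In 28 SHRs it had 8.29 ± 3.10 CPM, with 3.29, 8.05 and 16.8. The ranges overlapped, and the median of the SHRs lay near the highest WKY value. Over the ages this was a log2 fold change of 0.91 ± 0.18, a fold of 1.88 (edgeR, adjusted p = 2.56e-04). It passed under every alternative, with log2 fold changes from 0.85 to 0.96, and in all 28 fits that each left out 1 rat. Rats were left out in turn only in groups of 3 to 5, so that these fits do not cover the 18 SHRs of 12, 16 and 24 wk.

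At 8 wk the Scn9a levels of the WKY rats in the RVLM were 3.31, 2.79, 1.40, 3.39 and 3.84 CPM, and those of the SHRs were 4.22, 6.98, 8.40, 10.1 and 5.83 CPM. Every SHR stood above every WKY rat, as for 2.93% of genes in this region and age, with a log2 fold change of 1.23 ± 0.37 (edgeR, adjusted p = 0.0302). The call was lost with the library-name number as a term (1.42, adjusted p = 0.0605) and with 8 wk fitted alone (1.25, 0.0624). Without the libraries numbered 2 outside 10 wk, where 2 WKY rats of 8 wk are left, it was 1.18 with an adjusted p of 0.417. Without WKY replicate 3 its adjusted p was 0.114.

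At 10 wk, where every library has the number 2, the WKY rats had 5.13, 6.08, 1.09 and 2.07 CPM of Scn9a and the SHRs 6.79, 8.84, 9.42, 3.29 and 6.59. Of the SHRs, 1 stood below 2 of the WKY rats, and the log2 fold change was 0.95 ± 0.38 (edgeR, adjusted p = 0.364). At 12 wk the WKY rats had 7.73, 8.35 and 4.24 CPM and the SHRs a lowest, median and highest value of 6.07, 6.24 and 10.3. Here the strains overlapped widely, with a log2 fold change of 0.10 ± 0.40 (adjusted p = 0.999).

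At 16 wk the WKY rats had 5.78, 3.28 and 6.36 CPM of Scn9a in the RVLM, all below the SHRs, which had a lowest, median and highest value of 8.12, 9.51 and 13.1. Such a separation, with SHRs above, occurred in 2.03% of genes at this age, and the log2 fold change was 0.97 ± 0.42 (edgeR, adjusted p = 0.615). At 24 wk the WKY rats had 4.57, 5.34 and 1.93 CPM and the SHRs a lowest, median and highest value of 4.16, 8.74 and 16.8. Of the SHRs, 2 stood within the range of the WKY rats, and the log2 fold change was 1.29 ± 0.43 (adjusted p = 0.128). The test that the strain difference is the same at all ages was passed by 0 of the 8 genes in any region in edgeR, with 0 at an unadjusted p under 0.05 and 0 in DESeq2, where 0.0145% (NTS), 0.0224% (CVLM) and 0.00746% (RVLM) of genes passed it in edgeR. The ages are therefore not shown to differ.

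**Figure D4:**
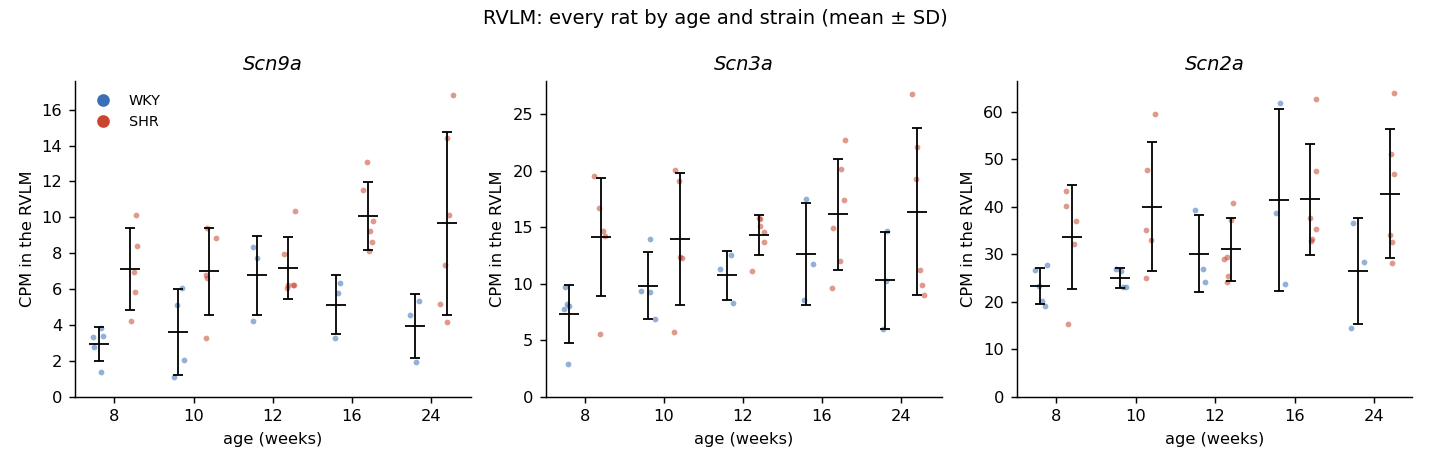
CPM in the RVLM against age in weeks for Scn9a, Scn3a and Scn2a, with 1 point per rat and bars at the mean ± SD of WKY rats (blue) and SHRs (red). For Scn9a the strains do not overlap at 8 and 16 wk.

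Scn3a had 9.83 ± 3.41 CPM in the RVLM of WKY rats, with a lowest, median and highest value of 2.93, 9.30 and 17.5. In SHRs it had 15.1 ± 5.04 CPM, with 5.60, 14.8 and 26.8. The ranges overlapped widely, and the log2 fold change over the ages was 0.58 ± 0.16 (edgeR, adjusted p = 0.0119). At 8 wk the WKY rats had 9.71, 7.74, 2.93, 8.00 and 8.19 CPM and the SHRs 5.60, 14.6, 14.2, 19.5 and 16.7, so that 4 of 5 SHRs stood above all WKY rats and SHR replicate 1 below 4 of them. This age had a log2 fold change of 0.93 ± 0.33 (edgeR, adjusted p = 0.0634). Without the libraries numbered 2 outside 10 wk, the value over the ages was 0.48 with an adjusted p of 0.0608.

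Scn2a had 28.4 ± 10.6 CPM in the RVLM of WKY rats and 37.9 ± 11.7 CPM in that of SHRs, with ranges of 14.5 to 61.9 and 15.4 to 64.0 that covered each other, and a log2 fold change over the ages of 0.39 ± 0.13 (edgeR, adjusted p = 0.0463). It lost the call in 19 of the 28 fits that left out 1 rat, with 0.117 without WKY replicate 2 of 16 wk. The adjusted p was 0.138 without the libraries numbered 2 outside 10 wk. At 8 wk the WKY rats had 26.6, 19.1, 20.2, 27.7 and 23.3 CPM and the SHRs 15.4, 43.2, 37.1, 40.3 and 32.1. SHR replicate 1, also low in Scn3a, had the lowest value of the 10 rats here, and the other 4 SHRs had the highest. The library of SHR replicate 6 of 24 wk, numbered 2, held the highest RVLM value of Scn9a (16.8), Scn3a (26.8) and Scn2a (64.0) in SHRs. This rat was not left out by itself.

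Scn8a passed in the RVLM at 8 wk only, with 14.3, 9.35, 3.49, 9.37 and 9.10 CPM in WKY rats and 9.08, 16.1, 16.1, 23.2 and 20.3 in SHRs. SHR replicate 1 lay below 4 of the WKY rats, and the other 4 SHRs above all of them. Its log2 fold change at 8 wk was 0.88 ± 0.29 (edgeR, adjusted p = 0.0489), and over the ages it was 0.22 ± 0.14 (adjusted p = 0.41). The 8 wk call was lost in 4 of the 7 alternatives run on it, among them with the library-name number as a term (adjusted p = 0.192) and without the libraries numbered 2 (0.49, adjusted p = 0.74). It was lost without WKY replicate 3 as well (0.67, adjusted p = 0.18).

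The β subunits were not called in the RVLM. Scn2b had a log2 fold change of 0.83 ± 0.30 at 8 wk (edgeR, adjusted p = 0.0693) and 0.25 ± 0.15 over the ages (adjusted p = 0.346). Scn3b had 0.28 ± 0.14 over the ages (adjusted p = 0.223) and Scn4b -0.10 ± 0.11 (adjusted p = 0.661). Scn1a, among the α subunits, had 0.21 ± 0.09 (adjusted p = 0.185).

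Markers of other cell types moved in the RVLM as well. Over the ages 3 of 6 oligodendrocyte markers were lower in SHRs, 1 of 6 astrocyte markers was higher and 1 of 4 markers of large, fast-firing neurons was lower. Calca, listed here with the primary afferent markers, was higher in SHRs (0.75, edgeR adjusted p = 9.79e-07). On the same list, Scn10a and Scn11a, channels that define nociceptive afferents, had medians under 1 CPM. The list therefore does not measure afferents here. Its 4 genes summed to 166 to 514.5 CPM in WKY rats and 243.2 to 778.3 in SHRs. Motor and cholinergic markers summed to 719 to 2630 CPM in WKY rats and 680 to 2593 in SHRs. Noradrenergic and adrenergic markers, of which 4 of 5 were tested and 0 called, summed to 16.4 to 158.3 CPM in WKY rats and 40.9 to 279.7 in SHRs, with 2 at an unadjusted p under 0.05. The part of these markers in the differences of Scn9a, Scn3a and Scn2a was not tested. At 8 wk 2 of 6 astrocyte markers and Calca (0.72, edgeR adjusted p = 0.0316) were higher, and Nefh (-1.41, adjusted p = 0.0443) and the oligodendrocyte marker Mobp (-0.60, adjusted p = 0.00267) were lower. Summed neuron markers at this age ran from 28351 to 34155 CPM in WKY rats and from 22969 to 33925 in SHRs. Those of large, fast-firing neurons ran from 1785 to 6073 and from 1069 to 1596. The part of all these markers was not tested either.

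In the NTS, 3 of the 8 genes were higher in SHRs over the ages and 0 lower, where 11.2% of all genes passed in either direction and 5.66% were higher. These were Scn1a, Scn8a and Scn4b, the genes with their lowest level in the NTS. The median log2 fold change of the 8 was -0.01, as against 0.01 over all genes tested. At the single ages 2 of 40 values passed, where 5.79%, 4.44%, 3.1%, 1.73% and 2.46% of genes did, in order of age. None of the 8 met the stricter call over the ages, which 1.45% of genes met.

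Scn1a had 98.1 ± 28.9 CPM in WKY rats, with a lowest, median and highest value of 63.7, 92.6 and 182, and 124 ± 36.6 in SHRs, with 63.9, 122 and 199.6. The ranges covered each other, and the log2 fold change was 0.39 ± 0.11 (edgeR, adjusted p = 0.0106).

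At 10 wk Scn1a had 118, 114, 92.3 and 76.7 CPM in the NTS of WKY rats and 122, 196, 199.6, 122 and 163 in that of SHRs. Every SHR stood above every WKY rat, as for 2.62% of genes, although the log2 fold change of 0.73 ± 0.24 had an adjusted p of 0.0654 (edgeR). At 12 wk the WKY rats had 73.5, 82.7 and 63.7 CPM and the SHRs a lowest, median and highest value of 63.9, 146 and 193. Of the SHRs, 1 stood within the range of the WKY rats and 5 above it, with a log2 fold change of 0.88 ± 0.26 (adjusted p = 0.0473). With the replicate number as a block it was 0.80 (adjusted p = 0.144), and all 3 same-numbered pairs of this age correlated by over 0.1. This call was lost in 5 of the 7 alternatives run on it and in 11 of 28 fits that left out 1 rat. At 8, 16 and 24 wk the log2 fold change was 0.10 to 0.15.

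Scn8a had 8.20 ± 2.68 CPM in the NTS of WKY rats and 10.8 ± 4.09 in that of SHRs, with a log2 fold change over the ages of 0.44 ± 0.14 (edgeR, adjusted p = 0.038). At 10 wk the WKY rats had 7.72, 7.24, 5.54 and 6.56 CPM and the SHRs 5.68, 23.3, 18.1, 8.90 and 14.1. Here 4 of 5 SHRs stood above all WKY rats, and the log2 fold change was 1.10 ± 0.31 (adjusted p = 0.0291). Without SHR replicate 2 of 10 wk it was 0.83 with an adjusted p of 0.171. Over the ages the call was lost in 11 of 28 fits that left out 1 rat.

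Scn4b had 79.1 ± 22.2 CPM in the NTS of WKY rats, from 34.4 to 118, and 98.6 ± 27.7 CPM in that of SHRs, from 53.6 to 151. Over the ages the log2 fold change was 0.37 ± 0.11 (edgeR, adjusted p = 0.0261), and 0 single ages passed. At 12 wk the WKY rats had 59.0, 84.7 and 64.6 CPM and the SHRs a lowest, median and highest value of 67.2, 102 and 151, with a log2 fold change of 0.64 ± 0.27 (adjusted p = 0.274). Scn3b had -0.16 ± 0.06 over the ages (adjusted p = 0.061), with 153 ± 17.8 CPM in WKY rats and 137 ± 19.9 in SHRs. Scn2a, Scn3a, Scn9a and Scn2b had log2 fold changes between -0.08 and 0.03.

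**Figure D5:**
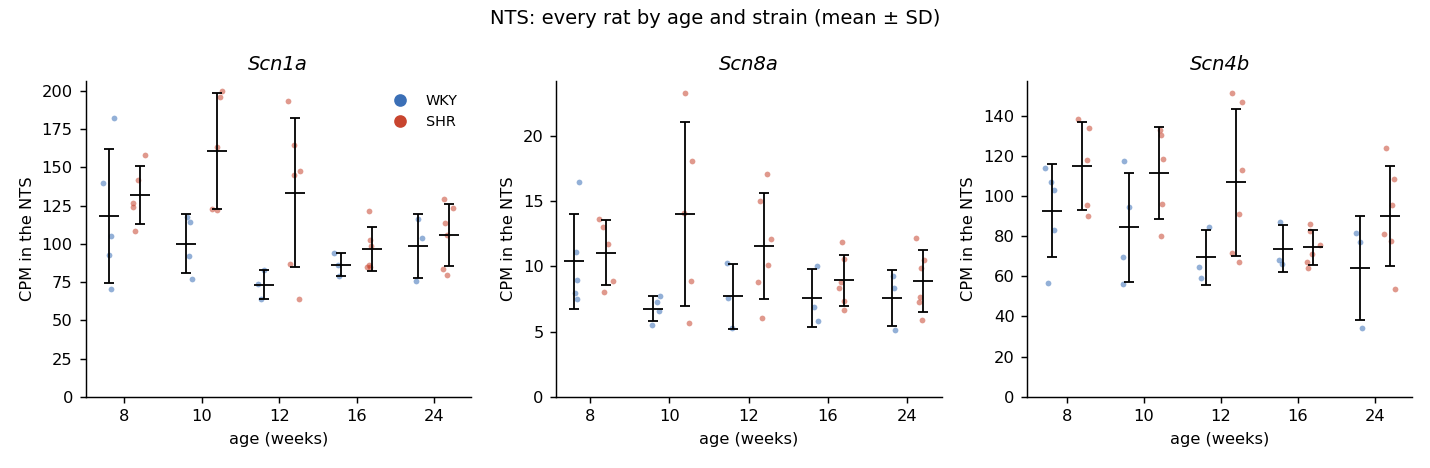
CPM in the NTS against age in weeks for Scn1a, Scn8a and Scn4b, with 1 point per rat and bars at the mean ± SD of WKY rats (blue) and SHRs (red). For Scn1a the strains do not overlap at 10 wk.

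Choroid plexus transcripts were unevenly spread in the NTS. Both tested markers, Ttr and Folr1, were lower in SHRs over the ages (edgeR, adjusted p = 9.45e-05 and 0.0202), and the summed markers ran from 0.9 to 4334.3 CPM in WKY rats and from 0.2 to 4.5 in SHRs, with 6.5, 754.1 and 4334.3 in the WKY rats of 12 wk and at most 92.03 in those of 10 wk. Ttr had a median under 1 CPM in SHRs. Also lower in SHRs were 1 of 4 inhibitory markers (Gad1, -0.23) and 1 of 6 oligodendrocyte markers (Mobp, -0.72). Gad1 and Mobp were lower at 10 wk as well (adjusted p = 0.0377 and 0.00494), and Ttr and Folr1 at 12 wk (2.95e-05 and 0.00149). Of 6 astrocyte, 6 microglia, 2 tested endothelial and 4 large-neuron markers, 0 passed in edgeR, with 1 of them, a microglia marker, at an unadjusted p under 0.05. The part of these markers in the differences of Scn1a, Scn8a and Scn4b was not tested.

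In the CVLM, 0 of the 8 genes passed between strains over the ages in edgeR, where 12.3% of all genes passed and 5.28% were higher, with 1 at an unadjusted p under 0.05 and 0 in DESeq2. At the single ages also 0 passed, where 7.64%, 3.18%, 2.62%, 2.27% and 7.13% of genes did in order of age, with 1 at an unadjusted p under 0.05, Scn8a at 8 wk (0.50 ± 0.21, adjusted p = 0.143), and 0 in DESeq2. The stricter call over the ages was met by 0 of the 8 and by 1.52% of genes. The largest value over the ages was that of Scn3a, 0.23 ± 0.10 (edgeR, adjusted p = 0.143). Scn9a at 8 wk had 5.16, 2.91, 3.80, 3.11 and 3.99 CPM in WKY rats and 3.40, 5.52, 4.98, 4.46 and 4.03 in SHRs, which overlapped. In these punches 4 of 6 oligodendrocyte markers and 1 of 6 microglia markers were lower in SHRs over the ages, and their part was not tested.

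Across the 120 combinations of gene, region and age, the strains did not overlap in 3, each with the SHRs above. These were Scn1a in the NTS at 10 wk and Scn9a in the RVLM at 8 and 16 wk. Over all genes tested, in order of age, the strains did not overlap in either direction for 4.02%, 8.27%, 5.52%, 6.39% and 6.18% of genes (NTS), for 4.5%, 6.53%, 5.28%, 5.79% and 11.7% (CVLM) and for 4.88%, 5.99%, 4.19%, 4.15% and 9.48% (RVLM).

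With age, a change within a strain was called for 1 of the 8 genes, in a comparison where 13.7% of all genes passed. Against 8 wk, 1 of 96 comparisons in WKY rats passed, Scn2b in the CVLM at 24 wk, and 0 of 96 in SHRs did (edgeR). In SHRs 4 (NTS), 9 (CVLM) and 1 (RVLM) had an unadjusted p under 0.05, and DESeq2 called 2, both in the CVLM at 10 wk. For 10, 12, 16 and 24 wk against 8 wk in WKY rats, 0.0218%, 0%, 0% and 0.464% of all genes passed in the NTS, 0.0447%, 4.55%, 1.98% and 13.7% in the CVLM, and 0.0149%, 0.00746%, 0.209% and 0.179% in the RVLM. In SHRs these shares were 27.1%, 0.00725%, 1.36% and 0.232% (NTS), 25.2%, 0.0746%, 0.283% and 0.649% (CVLM), and 22%, 0.0149%, 0.0746% and 0.358% (RVLM). CVLM levels of Scn2b in WKY rats were 32.4, 23.8, 23.7, 21.2 and 22.2 CPM at 8 wk and 17.1, 16.2 and 10.7 at 24 wk. This difference of -0.69 ± 0.24 on the log2 scale (edgeR, adjusted p = 0.0474) lost the call in 20 of 28 fits that left out 1 rat. With WKY replicate 2 of 12 wk left out, 5 values of the 8 genes passed in the CVLM of WKY rats.

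In the 10 wk comparison of SHRs, all libraries of 8 wk are numbered 1 and all of 10 wk numbered 2, so that age and number cannot be told apart. Of the 8 genes 0 passed there in edgeR, with 2 (NTS), 2 (CVLM) and 0 (RVLM) at an unadjusted p under 0.05. The nearest were Scn2b in the CVLM (-0.53 ± 0.20, adjusted p = 0.0501) and Scn3a in the NTS (0.52 ± 0.21, adjusted p = 0.0553). In the RVLM of WKY rats at 16 wk, Scn2b had 1.18 ± 0.34 (adjusted p = 0.0734) and Scn3b 1.06 (adjusted p = 0.0836) against 8 wk, and DESeq2 called 2 values there.

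Among other subunit genes, Scn7a passed the filter in each region and Scn4a in the RVLM, while Scn10a and Scn11a did not pass it in any region. Scn7a, an atypical sodium channel and the neighbour of Scn9a, was lower in the NTS of SHRs over the ages (-0.50 ± 0.14, edgeR adjusted p = 0.0154) and higher in their RVLM (0.61 ± 0.20, adjusted p = 0.0414). Its levels were 4.32 ± 1.35 CPM in WKY rats and 3.03 ± 1.11 in SHRs in the NTS, and 3.04 ± 1.67 and 4.73 ± 2.12 in the RVLM, with overlapping ranges. The strain difference of its NTS against RVLM gap was -1.10 ± 0.23 (adjusted p = 0.00171). Scn4a, the channel of skeletal muscle, had 0.918 ± 0.588 CPM in the RVLM.

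The 17 partner genes encode the anchors of the channels at axon initial segments and nodes (Ank3, Ank2, Sptbn4, Nfasc, Nrcam, Cntn1 and Tnr), fibroblast growth factor homologues that bind the α subunit (Fgf11, Fgf12, Fgf13 and Fgf14), and proteins that process, sort or splice channel products (Nedd4l, Bace1, Scnm1, Rbfox1, Rbfox2 and Dpysl2). All 17 passed the filter in each region. Over the ages 2 were higher and 0 lower in the NTS of SHRs, 1 higher and 1 lower in the CVLM and 2 higher and 1 lower in the RVLM, where 11.2%, 12.3% and 10.8% of all genes passed in the same order. The medians over the list were 0.09, 0.11 and 0.06, against medians over all genes tested of 0.01, 0.00 and 0.01.

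Nrcam, a cell adhesion molecule of nodes, was higher in all 3 regions of SHRs, by 0.37 ± 0.09 (NTS), 0.41 ± 0.09 (CVLM) and 0.32 ± 0.09 (RVLM) (edgeR, adjusted p = 0.00273, 6.11e-04 and 0.00785). Bace1, a protease that cuts β subunits, was higher in the NTS (0.29 ± 0.07, adjusted p = 0.00149). Fgf12 was lower in the CVLM (-0.14 ± 0.04, adjusted p = 0.0199) and the RVLM (-0.22 ± 0.05, adjusted p = 9.94e-04), and Fgf13 was higher in the RVLM (0.22 ± 0.07, adjusted p = 0.0389).

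At single ages, Dpysl2 (1.45 ± 0.40) and Bace1 (0.64 ± 0.22) were higher and Fgf12 (-0.50 ± 0.10) lower in SHRs of 8 wk in the RVLM, with edgeR adjusted p values of 0.0182, 0.0499 and 7.29e-04. Rbfox2 was higher in the NTS at 10 wk (0.60 ± 0.18, adjusted p = 0.0459), and Fgf12 lower in the CVLM at 24 wk (-0.30 ± 0.10, adjusted p = 0.0474). Between NTS and RVLM, 5 partners were higher and 9 lower in the NTS of WKY rats, where 30% of all genes were higher and 32.2% lower. Fgf11 had the widest of these differences (-2.32 ± 0.09) and Fgf13 ran the other way (1.14 ± 0.06).

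Genes whose means moved most alike were found by Pearson's r of log2 CPM over the 30 groups among 13116 genes, where all points of a nucleus share its tissue, so that r describes mostly the differences between nuclei. Scn1a was most like Kcna2 (r = 0.94), a potassium channel of axons, Esrrg and St18. Scn4b was most like Syt2 (0.95), a synaptotagmin of fast synapses, Tmem229b and Coro6. Scn8a had the least close neighbours, Hecw1 (0.87), Pdpr and Bace1.

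Scn3b was most like Zcchc12 (0.99), Adcyap1 (the neuropeptide PACAP) and Fxyd6, and Scn2a was most like Scn3b itself (0.99), then Gprasp1 and Chl1. Scn3a was most like Zfp667 (0.97), Chl1 and Pde1a, and Scn2b like Gaa (0.94), Plppr3 and Hap1. Scn9a was most like Chrna3 (0.95), a nicotinic receptor subunit of autonomic neurons, Spon1 and Ntrk2. Among the 8 genes themselves, Scn2a and Scn3a had r = 0.95, Scn1a had 0.84 with both Scn4b and Scn8a, and Scn9a and Scn4b had -0.83. Over the 10 means of the RVLM alone, Scn9a and Scn3a had r = 0.91, the highest of the pairs there. Both were called between the strains that make up these means. Within a nucleus r could differ from that over the 30 groups. Scn2a and Scn2b had 0.87 over the 30 groups, 0.69 in the RVLM and -0.07 in the NTS. Scn1a and Scn4b had 0.85 in the NTS and 0.12 in the CVLM.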

How the data were processed

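RNA-seq reads were, by the study's methods, mapped to rn6 and quantified with RSEM, and the authors deposited expected counts per gene, without normalization, in 1 table per region. The methods name a batch adjustment by ComBat_seq. The sources used here do not say if the deposited tables carry it. All columns were used (0 left out). Counts were rounded, and genes with a largest rlog value of at least 3.5 were kept, namely 13793 (NTS), 13408 (CVLM) and 13411 (RVLM). Strains were compared with edgeR 4.0.16 (R 4.3.3, TMM, robust quasi-likelihood test) in 1 fit per region over 10 groups, and regions in 1 fit with the rat as a block. The Benjamini-Hochberg adjustment ran over all genes of a contrast, with a threshold of 0.05. DESeq2 1.42.0 and limma 3.58.1 gave alternatives. Simulated data were used to test the edgeR fits for SHR against WKY at 8 wk and over the ages, and for NTS against RVLM in WKY rats. The other tests were not tried in this way. Of simulated log2 changes of 0.5, 10% (NTS), 13% (CVLM) and 15% (RVLM) were recovered at 8 wk. Over the ages these shares were 90%, 91% and 87%. All these shares hold only for the spread between libraries set in the simulation. Recovery for the subunit genes at their own spread was not tested. At these depths the SE of a log2 fold change carries the counting error and the spread between rats. The genes, the lists and the naming rule (all listed genes, values for those called) were chosen with earlier results of these data known. The marker lists hold 12 cell types, and the symbols Pecam1 and Foxj1 were not matched. Some items of the lists are not reported here.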

Additional observations from a re-analysis of the deposited data

Results flagged for a closer look

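In 12 of the 168 groups of 4 to 6 rats (7.14%), 1 library stood far from the others of its group in a subunit gene, by Dixon's criterion, which chance meets in about 1 of 20 groups. All levels here are in CPM.

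In the NTS these were Scn2a in SHR replicate 6 of 24 wk (153, the others 83.4 to 103) and Scn9a in WKY replicate 3 of 8 wk (29.96, the others 10.2 to 15.4). In the RVLM they were Scn1a in SHR replicate 6 of 24 wk (258, the others 171 to 192) and Scn8a in SHR replicate 2 of 10 wk (24.3, the others 12.8 to 15.6).

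The CVLM held the other 8. Scn2a stood at 75.7 in SHR replicate 4 of 8 wk (the others 60.7 to 64.7) and at 81.5 in SHR replicate 4 of 10 wk (61.5 to 65.3). Scn4b stood at 239.9 in SHR replicate 3 of 10 wk (167 to 188) and at 265 in SHR replicate 2 of 16 wk (134 to 169). WKY replicate 1 of 8 wk had 17.3 of Scn8a (9.25 to 11.5) and 32.4 of Scn2b (21.2 to 23.8). Lower than their groups were Scn3a in WKY replicate 3 of 10 wk (14.3, the others 16.4 to 16.7) and Scn3b in SHR replicate 2 of 24 wk (64.4, the others 73.5 to 78.4).

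The difference between strains in Scn9a was not the same in the NTS and the RVLM. The log2 fold change of SHRs against WKY rats over the ages was smaller in the NTS by -0.98 ± 0.22, and this passed the test of the difference itself (edgeR, adjusted p = 0.00308).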

How the results depend on the processing

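Of the subunit genes, Scn9a in the RVLM over the ages kept its call in every alternative run on it and in the 28 fits that each left out 1 rat of a group of 3 to 5. The 18 SHRs of 12, 16 and 24 wk were not left out in turn. Log2 fold changes there ran from 0.85 to 0.96 over the alternatives. Other calls near the threshold did not hold throughout, and the cause was not tested. The removal of libraries numbered 2 outside 10 wk and the tests on differences within rats were alternatives chosen after seeing the data. In the counts below, "without the libraries numbered 2" stands for this removal, which kept all libraries of 10 wk.

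For strain differences at single ages, counts of calls in the NTS went from 2 to 1 without the filter on low counts, to 1 with the replicate number as a block and to 0 with each age fitted alone. In the RVLM these went from 2 to 1 without the filter, to 0 with the library-name number as a term, without the libraries numbered 2 or with each age alone, and to 4 with DESeq2. Over the ages, the 3 calls of the RVLM became 1 without the libraries numbered 2. For ages against 8 wk, the 1 call in the CVLM of WKY rats became 0 without the filter, with the replicate block, with the number as a term, without the libraries numbered 2 and without the libraries of conflicting age. From 0, the CVLM of SHRs went to 1 without either of those sets and to 2 with DESeq2, the NTS of SHRs to 1 with the block and 2 without the libraries numbered 2, and the RVLM of WKY rats to 2 with DESeq2. For the strain difference between NTS and RVLM, the 1 call became 3 with limma voom.

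Same-numbered rats correlated by over 0.1 in 12 of 18 pairs (NTS), 13 of 18 (CVLM) and 7 of 18 (RVLM). Since not every pair did, the numbers were not taken to pair the rats over the ages. Every pair did in the NTS at 12 and 24 wk and in the CVLM at 10 and 12 wk. Of the strain calls at single ages, the block ended that of Scn1a in the NTS at 12 wk (0.80, adjusted p = 0.144) and no other. With it, Scn2a in the RVLM (adjusted p = 0.0532), Scn8a in the NTS (0.0515) and Scn4b in the NTS (0.0539) lost their calls over the ages, and Scn3b in the NTS gained one (-0.18, 0.0235), while no other call over the ages changed.

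Without 1 rat, calls at single ages ran from 0 to 3 (NTS), 0 to 1 (CVLM) and 0 to 4 (RVLM). They were 0 without WKY replicate 3 or SHR replicate 5 of 10 wk in the NTS, and without WKY replicate 3 or SHR replicates 2, 3 or 4 of 8 wk in the RVLM, and they were 4 there without replicate 1 of 8 wk of either strain. Over the ages the CVLM had 0 to 1. Against 8 wk there were 0 to 1 in SHRs (NTS and CVLM), 0 to 5 in the CVLM of WKY rats, with 5 without WKY replicate 2 of 12 wk, and 0 to 3 in the RVLM of WKY rats, with 3 without WKY replicate 2 of 16 wk. The strain difference between regions ran from 0 to 3 (NTS and RVLM) and 0 to 1 (CVLM and RVLM) in limma tests on the differences within rats.

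Differences that changed sign were all small and not called. Scn2b over the ages in the CVLM was 0.0041 with the replicate block. The strain difference of the CVLM against RVLM gap of Scn8a, 0.0025, was -0.0010 with DESeq2 size factors, -0.011 without the rats of conflicting age, -0.028 without the block, -0.023 with limma voom and -0.016 on the differences within rats. Without 1 rat, log2 fold changes over the ages ran from -0.0061 to 0.093 for Scn3a and -0.10 to 0.013 for Scn9a in the NTS, and from -0.089 to 0.038 for Scn2b and -0.0099 to 0.13 for Scn3b in the CVLM. The strain differences of gaps ran from -0.092 to 0.046 for Scn2b (NTS and CVLM), and from -0.11 to 0.0069 for Scn1a and -0.080 to 0.055 for Scn8a (CVLM and RVLM), and the CVLM against RVLM gap of Scn1a in SHRs from -0.0064 to 0.047.

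Over all genes, the 1311 calls at 8 wk in the RVLM were 224 with this age fitted alone, 372 with the number as a term and 230 without the libraries numbered 2. Those of the NTS, 798, were 208, 321 and 270, and 1272 with the block. In the CVLM 1025 were 284, 367 and 210, and 635 without the libraries of conflicting age. With each age fitted alone, calls at 12 wk fell from 428 to 167 (NTS), 351 to 148 (CVLM) and 228 to 118 (RVLM), those at 24 wk from 339 to 197 (NTS) and 956 to 300 (CVLM), and those at 10 wk in the NTS from 612 to 382. Without the libraries numbered 2 outside 10 wk the last were 994, and the 956 were 630, or 599 without the filter. DESeq2 size factors shifted the median of all genes by at most 0.025. Calls at single ages rest on 3 to 6 rats a group, and a value that misses the threshold there does not show that the strains were alike.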
